A study of Mus musculus with 2 samples.

Results

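Mature bone marrow neutrophils rich in *Mmp8* were described in 2 single-cell RNA-seq libraries of mouse marrow, 1 labelled Ctrl and 1 labelled cKO, for the conditional knockout of *Map4k4*, a MAP4K-family serine/threonine kinase. They were 2184 of the 14142 barcodes kept, 1093 of 8795 in the library labelled Ctrl and 1091 of 5347 in the library labelled cKO. A barcode was a member when *S100a8* and *S100a9* made up at least 5% of its unique molecular identifiers (UMIs, each standing for a captured transcript), *Camp*, *Ngp* and *Ltf* together less than 4%, *Retnlg* at least 0.5%, and when it held at least 3 UMIs of *Mmp8* and more of *Mmp8* than of *Il1b*. Members were thus chosen by the measured levels of these 8 genes, which describe the choice and are not findings.

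Each library was a mix of 2 parts of c-Kit+ cells enriched with magnetic beads and 3 parts of whole marrow after red-cell lysis. The mice were 13 to 14 weeks old, on a C57BL/6 background. The methods write the littermate control as Mx1-Cre Map4k4-/- and the knockout as Mx1-Cre Map4k4 f/f, whose floxed alleles were deleted by intraperitoneal poly I:C weeks before; whether the controls received poly I:C is not stated. The interferon-inducible Mx1 promoter drives Cre in blood cells and in other interferon-responsive cells, so the deletion is not limited to neutrophils. The number of animals behind a library is not given. With 1 library per group no test was possible and no p-value is given; intervals are exact 95% intervals that cover counting error only. The libraries shared 3010 cell barcodes; 260 Ctrl and 533 cKO members carried a shared barcode, and 46 barcodes were members in both.

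Neutrophils fill their granules in a fixed order while they mature in the marrow. Primary (azurophil) granules with myeloperoxidase and elastase form at the promyelocyte stage, secondary (specific) granules with lactoferrin, cathelicidin and neutrophil gelatinase-associated lipocalin at the myelocyte and metamyelocyte stages, and tertiary granules with gelatinase (*Mmp9*) in band cells. *Mmp8* encodes neutrophil collagenase, which is stored in the specific granules and cleaves fibrillar collagens; its transcript is found late in this order. Mature cells then switch to receptors for chemoattractants and growth factors and to inflammatory genes such as *Il1b*, which encodes interleukin-1β, before or after they leave for the blood.

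Sequence upstream of 4 genes is shown. *Itgb2l* and *Cd177* carry the pattern described here. *Mmp8* and *Il1b* were used to choose the members, so their levels in members describe the choice and are not findings. Each window is the 250 bases before the annotated start of transcription in RefSeq on GRCm38.p6, 5′ to 3′ on the strand of the gene. Capitals mark matches to the core of a C/EBP site, TTGCNNAA, or to an ETS site of the kind bound by PU.1, GAGGAA, searched on both strands. *Mmp8* lies on the plus strand (chr9:7558179-7558428), and *Itgb2l* (chr16:96443615-96443864), *Cd177* (chr7:24760312-24760561) and *Il1b* (chr2:129371140-129371389) lie on the minus strand.
Mmp8: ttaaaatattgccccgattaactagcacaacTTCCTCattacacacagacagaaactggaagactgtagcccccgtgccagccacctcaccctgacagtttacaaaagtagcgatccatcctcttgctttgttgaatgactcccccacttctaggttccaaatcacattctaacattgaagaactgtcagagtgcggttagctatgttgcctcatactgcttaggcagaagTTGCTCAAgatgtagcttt
Itgb2l: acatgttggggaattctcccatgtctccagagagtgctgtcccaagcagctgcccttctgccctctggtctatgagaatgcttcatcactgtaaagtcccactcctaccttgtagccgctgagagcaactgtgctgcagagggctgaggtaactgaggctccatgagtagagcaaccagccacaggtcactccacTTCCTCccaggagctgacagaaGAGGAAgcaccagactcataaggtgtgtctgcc
Cd177: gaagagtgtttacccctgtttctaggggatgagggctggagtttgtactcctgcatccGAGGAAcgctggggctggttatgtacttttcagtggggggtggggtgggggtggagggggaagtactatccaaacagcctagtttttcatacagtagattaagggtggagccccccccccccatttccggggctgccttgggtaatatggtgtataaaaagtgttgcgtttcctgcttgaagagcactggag
Il1b: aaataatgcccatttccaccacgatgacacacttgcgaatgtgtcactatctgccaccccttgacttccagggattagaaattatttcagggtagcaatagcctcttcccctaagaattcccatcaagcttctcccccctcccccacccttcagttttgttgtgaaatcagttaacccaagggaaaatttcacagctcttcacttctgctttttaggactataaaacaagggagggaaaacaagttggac
The *Mmp8* window held a C/EBP match starting 19 bases before the start, TTGCTCAA, and an ETS match at 219 bases, TTCCTC on the strand shown. The *Itgb2l* window held ETS matches at 55 and 33 bases, the *Cd177* window held an ETS match at 192 bases, and neither motif was found in the *Il1b* window. Of all 32851 promoter windows of this length, 9.56% held the C/EBP letters and 23.3% the ETS letters. A match is a description of the letters and not a site.

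Counts of *Mmp8* and *Il1b* split the mature neutrophils, that is all barcodes that meet the conditions on the other 6 genes, into 3 groups. Beside the 2184 members there were 178 barcodes with at least 3 UMIs of *Il1b* and more *Il1b* than *Mmp8* (72 Ctrl, 106 cKO), called *Il1b*-richer, and 600 that met neither of these conditions on counts (357 Ctrl, 243 cKO), called barcodes rich in neither. Most of the latter still held *Mmp8*, with a median of 1 UMI in both libraries and a highest value of 3 and 7. Those 778 barcodes together are called the other mature neutrophils, a name that states only the conditions of the rule they meet. In the library labelled cKO most of them were barcodes rich in neither, whose makeup, given below, was unlike that of members. Members held a median of 8 UMIs of *Mmp8* in the library labelled Ctrl (quartiles 5 and 13, highest 46) and of 20 in the library labelled cKO (quartiles 11 and 32, highest 128). As a share of the UMIs of a barcode the medians were close, 0.301% and 0.315%. Most members held no *Il1b* at all, 959 of 1093 (87.7%, 85.6–89.6) and 680 of 1091 (62.3%, 59.4–65.2). The members with at least 5 UMIs of *Il1b* were 0.732% (0.317–1.44) in the library labelled Ctrl and 8.80% (7.19–10.6) in the library labelled cKO. This cut is a number of UMIs and members of the library labelled cKO were deeper; per UMI of the pool *Il1b* was at 64.2 CPM (56.1–73.1) and 193 CPM (183–203).

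**Figure D1:**
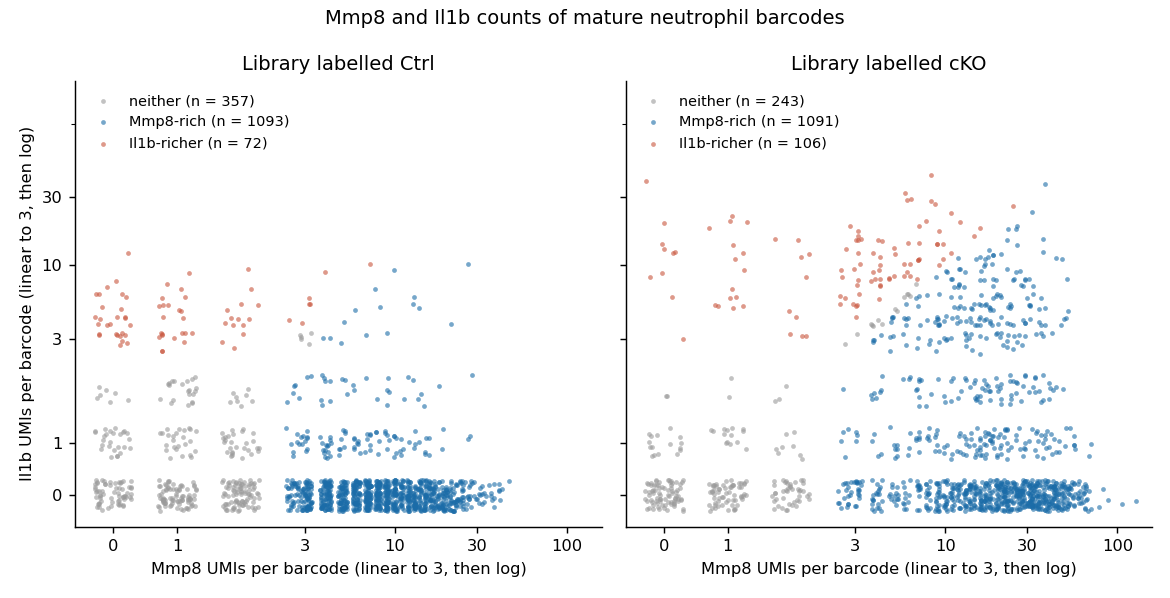
UMIs of Mmp8 (x axis) and of Il1b (y axis) in each mature neutrophil barcode of the library labelled Ctrl (left) and cKO (right); both axes are linear up to 3 and logarithmic above, and points are moved by up to 0.3 UMIs at random so that they do not hide each other. Members (blue) sit along the bottom of both panels, and members with several UMIs of both genes are found mostly in the library labelled cKO, where 8.80% of members against 0.732% hold at least 5 UMIs of Il1b and members have 2.29 times the median UMIs (Il1b at 193 against 64.2 CPM).

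The cut at 3 UMIs of *Mmp8* fell within a continuous range. The 129 Ctrl and 41 cKO members with exactly 3 UMIs had 642 and 806 CPM of *Cd177* (its UMIs scaled to 1000000 UMIs of the group), and the 138 and 64 barcodes just outside with 2 UMIs had 517 and 570 CPM. Median UMIs per barcode were 1991 and 1730 just inside and 1677 and 1559.5 just outside. A further 12 Ctrl and 85 cKO barcodes held at least 3 UMIs of *Mmp8* but no more than of *Il1b* and stayed outside for that reason.

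Members had more UMIs per barcode in the library labelled cKO, with a median of 6494 (quartiles 4276.5 and 8876.5) against 2832 (2081 and 3935) in the library labelled Ctrl, a ratio of 2.29. The *Il1b*-richer barcodes differed in the same way (4913.5 against 2037.5), whereas barcodes rich in neither were shallow in both (1407 and 1635). Genes detected per member were 1573 and 1050 at full depth. After every barcode was thinned to 2000 UMIs the order turned, with 698 genes in the library labelled cKO and 802.5 in the library labelled Ctrl. Since the rule asks for a number of *Mmp8* UMIs, depth enters the choice of members.

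**Figure D2:**
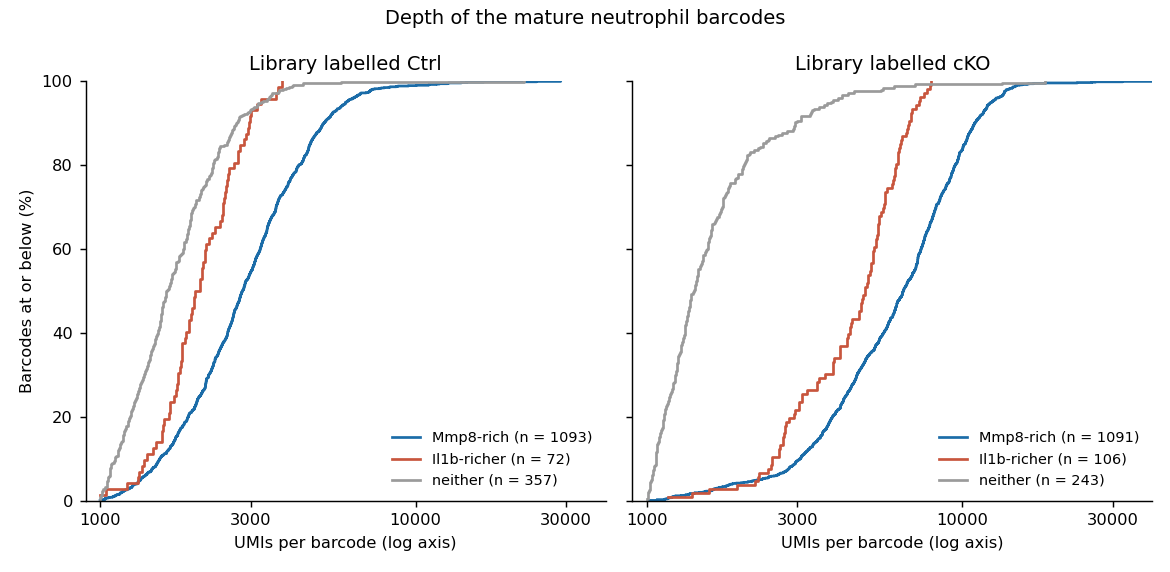
Cumulative percent of barcodes (y axis) at or below a number of UMIs (x axis, log scale) for members (blue), Il1b-richer barcodes (red) and barcodes rich in neither (grey) in the library labelled Ctrl (left) and cKO (right). The median of members moved from 2832 UMIs in the left panel to 6494 in the right one, while that of barcodes rich in neither was 1635 and 1407.

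The label of mature neutrophil was checked against *Mmp8*, *Retnlg* (resistin-like gamma), *Mmp9* and *Fpr1* (the receptor for formylated peptides); the first pair was used by the rule and the other pair was not. *Fpr1* stood at 339 CPM (320–359) in members of the library labelled Ctrl and at 384 CPM (370–398) in members of the library labelled cKO, against 18.0 and 25.6 CPM in immature neutrophils (*Camp*, *Ngp* and *Ltf* at 4% or more and *Retnlg* below 0.5%). *Mmp9* stood at 3867 and 3444 CPM against 475 and 555 CPM. Both were well above the immature level, and the label was kept. The immature group was cut by *Retnlg*, so a gap in genes that vary with it is built into the choice. In other mature neutrophils *Fpr1* was at 259 and 211 CPM and *Mmp9* at 3029 and 1971 CPM. In neutrophils with *Camp*, *Ngp* and *Ltf* at 4% or more and *Retnlg* at 0.5% or more, *Fpr1* was at 192 and 209 CPM and *Mmp9* at 3649 and 3176 CPM. At least 1 UMI of *Fpr1* was seen in 59.6% and 81.4% of members, and in 1.77% and 5.26% of B cells, which should lack it (733 and 95 barcodes, median depths 3146 and 24684 UMIs). Free RNA was not negligible for *Mmp8* itself, of which 19.5% and 32.6% of B cells held a UMI. At least 3 UMIs were held by 0.682% and 3.16% of them.

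*Map4k4* is the gene that checks the labels. In members it stood at 173 CPM (159–187) in the library labelled Ctrl and at 127 CPM (119–135) in the library labelled cKO, a log2 ratio of −0.45 as measured, of −0.18 after centring on the median gene and of 0.095 under median-of-ratios scaling. It was at 38.5 and 29.2 CPM in immature neutrophils, at 218 and 147 CPM in neutrophils with both *Camp*, *Ngp* and *Ltf* at 4% or more and *Retnlg* at 0.5% or more, called passing, and at 88.7 and 57.3 CPM in the other mature neutrophils. The *Il1b*-richer barcodes had 32.4 CPM (10.5–75.7) and 48.3 CPM (30.9–71.9), on 5 and 24 UMIs, with intervals that overlap. The transcript was thus not lost from the counts of the library labelled cKO. The paper reports, by RT-PCR, that *Map4k4* transcript was lost in stem and progenitor cells after poly I:C, which is another measure in other cells. The 3′ counts used here are summed over a gene and do not show which exons remain. Directions between the libraries are given under this limit.

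Members made up 12.4% (11.7–13.1) of kept barcodes in the library labelled Ctrl and 20.4% (19.3–21.5) in the library labelled cKO. Most of this gap lay in how many barcodes were mature neutrophils at all, 17.3% and 26.9%. Within the mature neutrophils, members were 71.8% (69.5–74.1) and 75.8% (73.5–78.0), *Il1b*-richer barcodes 4.73% (3.72–5.92) and 7.36% (6.07–8.83), and those rich in neither 23.5% (21.3–25.7) and 16.9% (15.0–18.9). With every barcode thinned to 2000 UMIs (245 Ctrl and 47 cKO members were shallower and dropped out), members were 10.5% and 21.0% of kept barcodes and 76.8% (74.1–79.4) and 79.0% (76.6–81.3) of mature neutrophils. *Il1b*-richer barcodes were then 2.92% (1.97–4.17) and 7.34% (5.93–8.96) of mature neutrophils. The gap in the share of members within mature neutrophils was 3.95 percentage points by the rule and −0.13 with a minimum of 2 UMIs of *Mmp8*. It was wider with a minimum of 5 UMIs of *Mmp8* and with *Camp*, *Ngp* and *Ltf* below 2%. Among kept barcodes the gap was narrower without barcodes that held markers of another lineage. The closing section gives these values. The mix of c-Kit+ cells and whole marrow sets the share of kept barcodes, so a gap there cannot be told apart from unequal mixing.

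Compared with the other mature neutrophils of the same library, members held more transcripts of secondary granule genes, 7 of 12 being past the fold in both libraries and none lower. Among barcodes with 1500 to 3000 UMIs, a range chosen after seeing the data because members differ in depth, 3 of the 12 were higher (*Cd177*, *Ceacam10* and *Olfm4*). Of all genes compared, 3.06% were higher and 1.76% lower in that range. Among single genes, *Itgb2l* and *Cd177* were higher and *Fgl2* and *Socs3* lower in both, with all depths pooled and in that range. Of 2221 genes with a mean of at least 50 CPM, 120 (5.4%) lay more than 1.5-fold higher in both libraries and 60 (2.7%) more than 1.5-fold lower, on log2 ratios centred on the median gene. That median was −0.16 in the library labelled Ctrl and −0.20 in the library labelled cKO before centring, and all ratios below are relative to it unless stated. The rule used the same contrast, so these counts describe the 2 kinds of barcode and support nothing. Without centring, the split of 120 and 60 becomes 64 and 107.

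*Itgb2l*, which encodes a β2-integrin-like subunit, and *Cd177*, the surface protein that presents proteinase 3 on neutrophils, were among the 12 highest. *Itgb2l* was at 342 CPM (323–362) in Ctrl members and 270 CPM (258–282) in cKO members, against 103 (82.5–128) and 89.1 (71.1–110) in other mature neutrophils, log2 ratios of 1.88 and 1.79. *Cd177* was at 1142 CPM (1107–1178) and 1176 CPM (1151–1200) against 436 (392–484) and 381 (342–422), ratios of 1.55 and 1.82. Members and other mature neutrophils did not overlap in these intervals in either library. A UMI of *Cd177* was seen in 84.1% and 91.7% of members and in 29.5% and 44.2% of B cells, and one of *Itgb2l* in 53.4% and 61.7% of members and in 11.1% and 11.6% of B cells.

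The others of the 12 highest were *Syne1* (a nuclear envelope spectrin-repeat protein, ratios 2.15 and 1.79), *1700047M11Rik* (1.72 and 1.69), *Ifitm6* (1.58 and 2.04), *Lims1* (an integrin-linked adaptor, 1.5 and 1.55), *Prok2* (the chemoattractant prokineticin 2, 1.87 and 1.49), *Capg* (an actin capping protein, 1.42 and 1.95), *Adpgk* (ADP-dependent glucokinase, 1.41 and 1.57), *Anxa1* (annexin A1, 1.12 and 1.12), *Stfa3* (a stefin, 1.11 and 1.93) and *Map4k4* itself (1.11 and 1.33). *Stfa3* belongs to a cluster of near-identical genes between which 3′ reads may be split. Its call ended with at least 5 *Mmp8* UMIs, without the barcodes found in both libraries and after thinning to 2000 UMIs, where its direction turned. At 1500 to 3000 UMIs 10 of the 12 stayed past the fold in both libraries, and *Ifitm6* and *Anxa1* did not (0.58 and 0.24 in the library labelled cKO). Of 15 RefSeq promoter windows found for 11 of these 12 genes, 1 (*Anxa1*) held the C/EBP letters and 6 the ETS letters, 40% against the 23.3% of all windows. The 9 windows found for the 12 lowest genes held the C/EBP letters in 2 (22.2%) and the ETS letters in 3 (33.3%).

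The 12 lowest genes included an antibody light chain gene, *Igkc*, and the joining chain gene *Jchain*. *Igkc* and *Jchain*, products of B and plasma cells, had ratios of −2.03 and −1.98 and of −1.98 and −1.35. Their direction turned in at least 1 library under several alternatives, reaching 1.63 and 2.27 with at least 2 *Mmp8* UMIs, 1.17 and 1.71 without the barcodes found in both libraries, and 0.19 and 0.40 at 1500 to 3000 UMIs. Summed over 9 B cell markers, members held 1825 CPM in the library labelled Ctrl and 186 CPM in the library labelled cKO, and other mature neutrophils 11145 and 673 CPM. *Igkc* was the most abundant marker in all 4 pools, and *Ms4a1* and *Ebf1* were at 0 in cKO members. The part of B cell transcripts in the results was not tested. *Fgl2*, a fibrinogen-like protein, was at 87.7 CPM (78.2–98.0) and 63.2 CPM (57.7–69.2) in members against 313 (276–354) and 215 (187–247), ratios of −1.68 and −1.57. *Gm2a*, the lysosomal GM2 ganglioside activator, was at 74.4 and 81.8 CPM against 233 and 295, ratios of −1.49 and −1.65. *Wfdc17*, a small secreted protein with a WAP domain, was at 207 and 2758 CPM against 1157 and 6330, ratios of −2.32 and −1.0. The rest were *Steap4* (a metalloreductase, −3.36 and −1.20), *Gm5150* (−1.25 and −1.17), *Mpeg1* (perforin-2, −1.06 and −1.18), *St8sia4* (a polysialyltransferase, −1.06 and −1.10), *Marcks* (−1.34 and −1.06), *Hist1h2bc* (−1.01 and −1.42) and *Sirpb1c* (−1.65 and −0.95). At 1500 to 3000 UMIs, where the library labelled cKO had 82 members and 102 other mature neutrophils, 4 of the 12 stayed past the fold in both libraries (*Fgl2*, *Steap4*, *Mpeg1* and *Wfdc17*). Beside *Igkc* and *Jchain*, those that did not had ratios in the library labelled cKO of −0.23 (*Gm2a*), −0.14 (*Gm5150*), −0.54 (*St8sia4*), −0.25 (*Marcks*), −0.29 (*Hist1h2bc*) and −0.04 (*Sirpb1c*). *Fgl2* and *Mpeg1* were not past the fold at 4000 to 12000 UMIs, where the library labelled Ctrl had 4 other mature barcodes. *Wfdc17* was not past it with means of barcode shares.

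**Figure D3:**
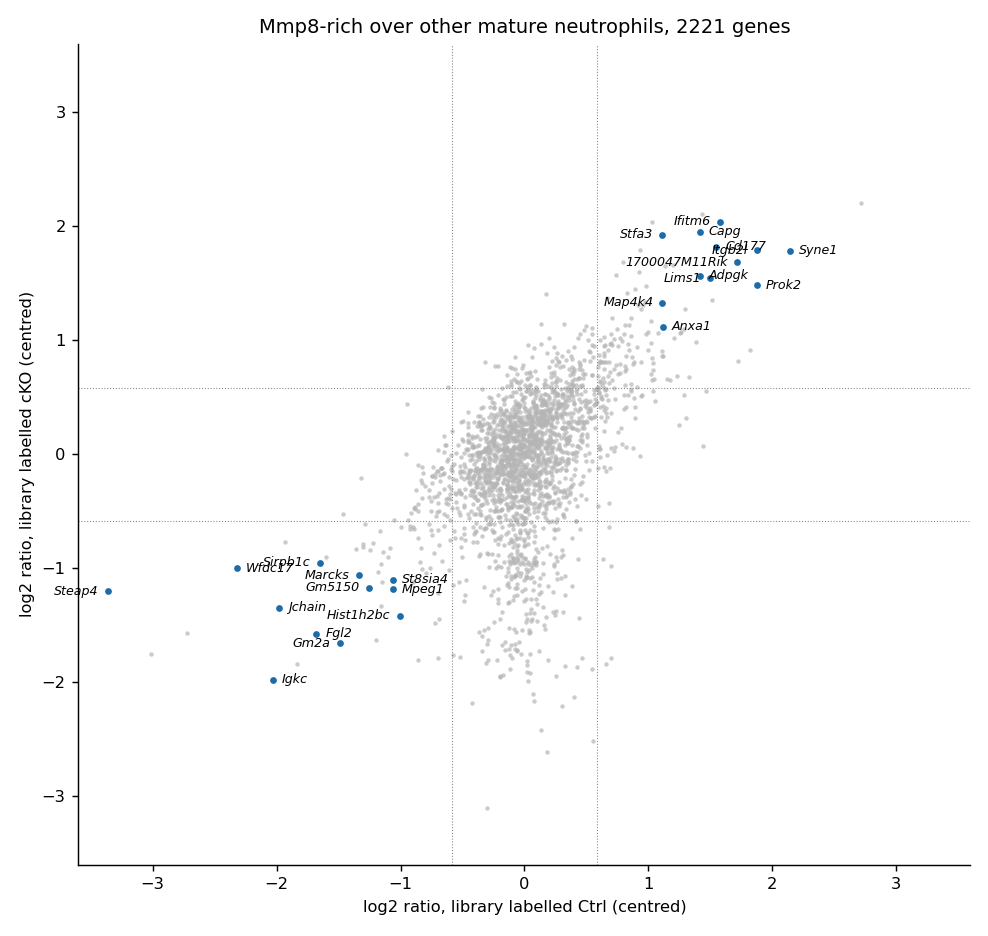
Centred log2 ratio of members over other mature neutrophils for 2221 genes in the library labelled Ctrl (x axis) and cKO (y axis), with the 12 highest and 12 lowest genes in blue and dotted lines at 1.5-fold. Itgb2l, Syne1 and Cd177 lie at the upper right and Fgl2, Gm2a and Igkc at the lower left, and a further column of genes is low on the y axis alone.

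The genes low in the library labelled cKO alone are set beside the makeup of the barcodes rich in neither there. Their median ribosomal protein share was 12.8% of UMIs and their mitochondrial share 1.42%, and *Camp*, *Ngp* and *Ltf* took 3.20%. *Mmp9* stood at 1447 CPM in them, against 3444 CPM in cKO members and 3096 CPM in the Ctrl barcodes rich in neither. The cKO members had 2.92% ribosomal, 0.325% mitochondrial and 0.518% *Camp*, *Ngp* and *Ltf* UMIs, while the barcodes rich in neither of the library labelled Ctrl had 4.64%, 0.393% and 0.593%. *Npm1* (nucleophosmin) had ratios of 0.03 in the library labelled Ctrl and −1.98 in the library labelled cKO, and *Elane* (neutrophil elastase) of 0.54 and −1.88. The part of these barcodes in the ratios was not tested. Counts here take only genes past the fold in both libraries, and members were also compared with the *Il1b*-richer barcodes, whose ribosomal shares were 5.10% and 3.69%.

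Against the *Il1b*-richer barcodes, of 1232 genes with a mean of at least 100 CPM, 114 (9.25%) were more than 1.5-fold higher in members in both libraries and 93 (7.55%) lower. The genes named from this comparison were picked after the values were seen. *Itgb2l* was higher by 3.30 and 3.82 on the log2 scale, with 6 and 11 UMIs in all in the *Il1b*-richer pools. *Cybb*, the catalytic subunit of the phagocyte NADPH oxidase, was at 719 and 500 CPM against 110 and 94.6 (2.94 and 2.67). *Adpgk* was at 1071 and 656 CPM against 130 and 105 (3.29 and 2.91). *Mmp25*, which encodes a membrane-anchored matrix metalloproteinase of neutrophils, was at 335 and 303 CPM against 123 and 98.6 (1.68 and 1.88). At the other end, *Socs3*, the feedback inhibitor of G-CSF receptor signalling, was at 20.1 and 48.6 CPM against 182 and 344 (−2.91 and −2.55), and *Prr5l* at 16.4 and 46.6 CPM against 298 and 258 (−3.91 and −2.19). *Igkc* had ratios of 1.28 and 0.03 in this comparison.

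The levels of these genes also ran in an order through the neutrophils of the same libraries. They are given here in the immature (3846 barcodes) and passing neutrophils (1261 barcodes), beside members and *Il1b*-richer barcodes. Of the 12 genes highest over other mature neutrophils, 10 were higher in passing neutrophils than in members in both libraries, with intervals that did not overlap. The exceptions were *Prok2*, at 24.4 and 63.1 CPM in passing neutrophils and 57.7 and 284 CPM in members, and *Stfa3*, at 23.5 and 69.3 CPM and 85.7 and 209 CPM. All 12 were higher in members than in *Il1b*-richer barcodes, again without overlap, but those barcodes are part of the other mature neutrophils that the 12 genes were ranked against. *Cd177* went from 1571 and 1716 CPM in immature to 1987 and 1956 in passing neutrophils, 1142 and 1176 in members and 298 and 189 in *Il1b*-richer barcodes. Of the 12 lowest genes, 10 were lower in passing neutrophils than in members and lower in members than in *Il1b*-richer barcodes in both libraries; *Igkc* and *Jchain* were the exceptions. *Fgl2* went from 17.6 and 8.85 CPM through 87.7 and 63.2 to 577 and 320 CPM. The pools were cut by *Camp*, *Ngp*, *Ltf*, *Retnlg*, *Mmp8* and *Il1b*, so an order in genes that vary with these is built into the choice, and the pools are not time points. These counts were made for the named genes only. No share over all genes compared stands beside them, so whether such an order is unusual was not tested.

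**Figure D4:**
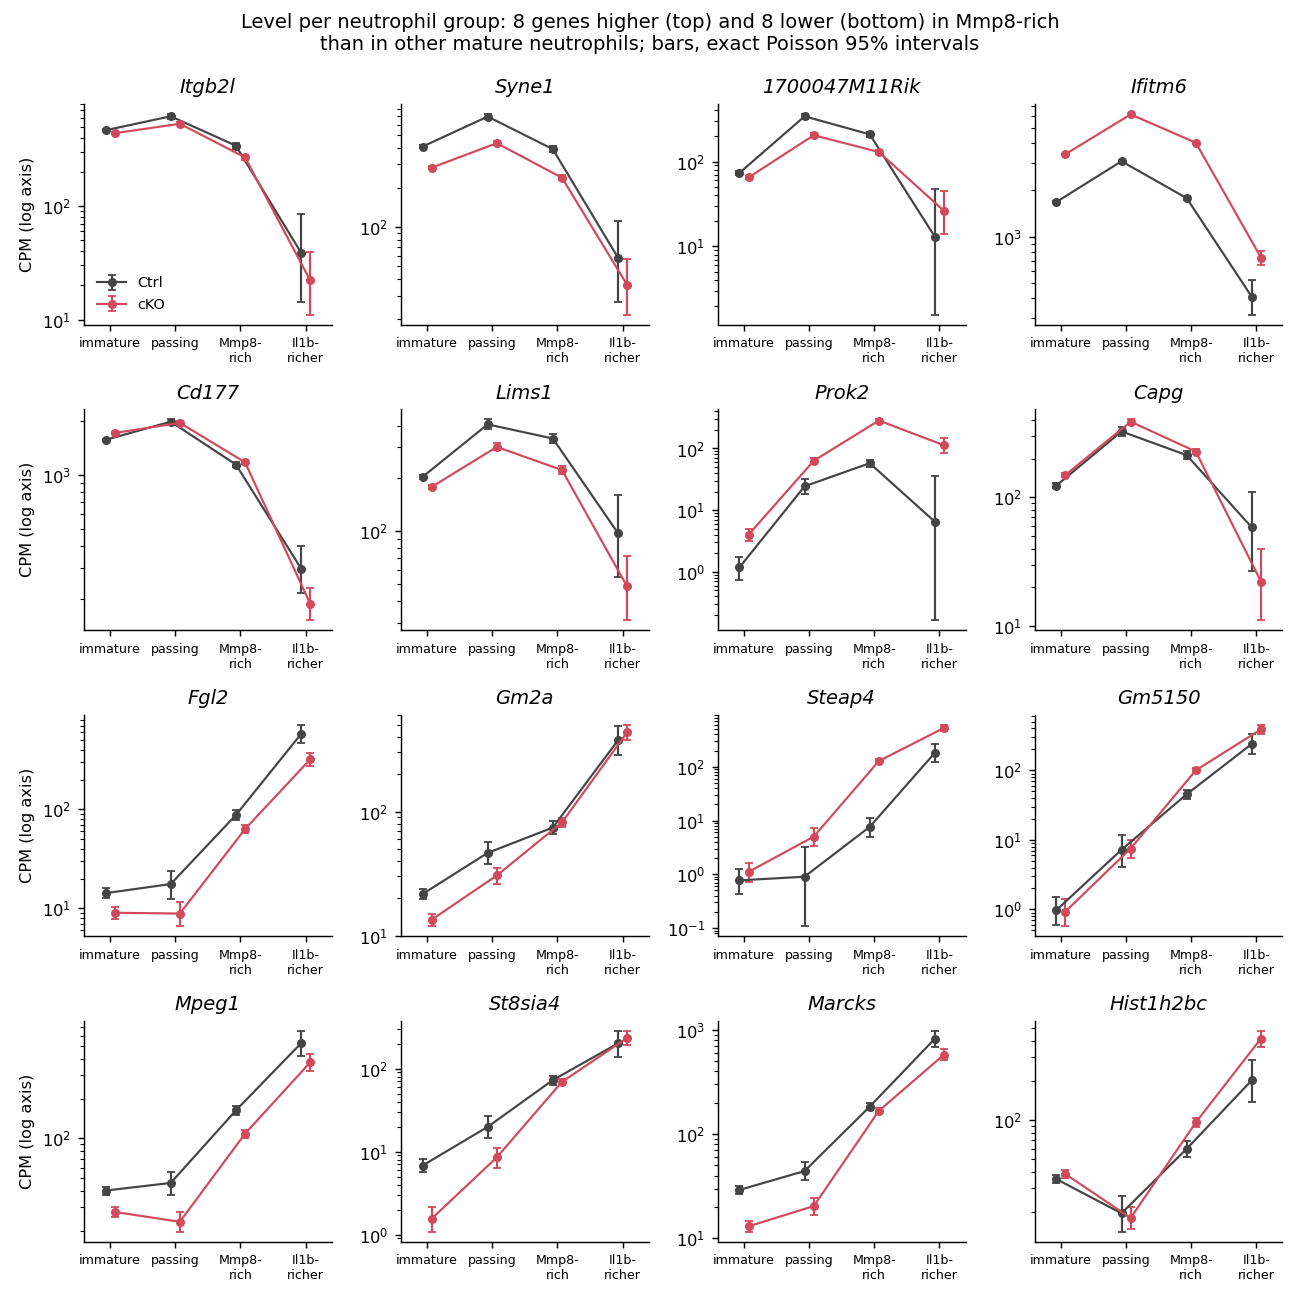
CPM (y axes, log scale) of 16 genes in immature, passing, Mmp8-rich and Il1b-richer neutrophils of the library labelled Ctrl (grey) and cKO (red), with exact Poisson 95% intervals as bars. The upper 8 genes drop between members and Il1b-richer barcodes, Cd177 from 1142 and 1176 to 298 and 189 CPM, and the lower 8 genes, such as Fgl2, climb from passing neutrophils through members to Il1b-richer barcodes.

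*Mmp8* itself, which chose the members, was at 267 and 224 CPM in immature neutrophils, 3296 and 2920 in passing neutrophils, 3152 and 3344 in members and 499 and 912 in *Il1b*-richer barcodes. *Retnlg*, also part of the rule, was at 14671 and 15365 CPM in passing neutrophils and at 35607 and 39763 CPM in members. *Mmp9* was at 3649 and 3176 CPM in passing neutrophils, 3867 and 3444 in members and 2736 and 2441 in *Il1b*-richer barcodes, a narrower range than that of *Mmp8*.

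Members also varied among themselves along the share of *Camp*, *Ngp* and *Ltf*. Of Ctrl members 647 had less than 1% of these, 222 had 1 to 2% and 224 had 2 to 4%, and of cKO members 743, 156 and 192. *Cd177* was at 779, 1457 and 1772 CPM over these 3 ranges in the library labelled Ctrl and at 871, 1609 and 1829 CPM in the library labelled cKO. *Cybb* was at 447, 870 and 1265 CPM and at 299, 699 and 1002 CPM. *Csf3r*, the receptor of G-CSF, ran the other way, at 1529, 838 and 576 CPM and at 1519, 637 and 454 CPM. A UMI of *Il1b* was seen in 17.9%, 5.41% and 2.68% of Ctrl members and in 52.0%, 8.97% and 5.73% of cKO members. *Mmp8* changed less, at 2755, 3609 and 3737 CPM and at 3064, 3865 and 3850 CPM. The ranges are cut by genes of the rule, and the rule caps *Il1b* at less than *Mmp8*, so these values describe the members only.

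Lists of genes with known roles place members among the mature neutrophils; they are set beside the 5.4% and 2.7% of all genes past the fold. Genes that pass only after centring are given as such. At 1500 to 3000 UMIs 68 of the 2221 genes (3.06%) were higher and 39 (1.76%) lower, and several lists had fewer genes past the fold. Of 12 secondary granule genes compared, 7 were higher in members than in other mature neutrophils in both libraries and none lower, with list medians of 0.70 and 0.85 on the log2 scale where all genes have 0. They were *Lcn2* (the siderophore-binding lipocalin, 5473 and 8648 CPM against 2508 and 4642), *Cd177*, *Cybb*, *Lyz2* (lysozyme), *Ceacam10*, *Olfm4* (olfactomedin 4) and *Wfdc21*, of which *Lyz2* passed only after centring. *Lcn2* was higher still in passing neutrophils, at 11484 and 17275 CPM. Of 10 gelatinase granule genes, 3 were higher, namely *Mmp25*, *Itgam* (the αM subunit of Mac-1, 779 and 598 CPM against 535 and 349) and *Ceacam1*, and *Fgl2* was lower; *Itgam* passed only after centring. Of 8 primary granule genes, *Lyz2* was higher and *Srgn*, the granule proteoglycan serglycin, was lower (803 and 1277 CPM against 1662 and 2310). The medians of this list differed in sign, 0.47 in the library labelled Ctrl and −1.86 in the library labelled cKO, where *Mpo* was at 3480 CPM and *Elane* at 3283 CPM in the barcodes rich in neither, against 668 and 438 CPM in those of the library labelled Ctrl. Of 6 metalloproteinase, adamalysin and inhibitor genes compared, only *Mmp25* was past the fold; *Timp2* had ratios of 0.42 and 0.57.

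Of 8 genes of the phagocyte oxidase, *Cybb* and *Ncf1*, a cytosolic subunit, were higher, the latter at 999 and 704 CPM against 716 and 418 and only after centring. At 1500 to 3000 UMIs neither was past the fold in both libraries, *Cybb* having ratios of 1.75 and −0.06. Among 7 genes of the S100 and annexin families beside the rule genes, *Anxa1*, *Anxa3* and *Anxa11* were higher and none lower, and without centring *Anxa1* alone. Of 14 glycolysis genes, *Hk3* (hexokinase 3) and *Pgk1* were higher, both only after centring. Of 7 nuclear shape and lamina genes, *Syne1* was past the fold. *Lbr*, the lamin B receptor needed for nuclear lobulation, was at 567 and 491 CPM against 594 and 382, ratios of 0.09 and 0.56.

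Of 16 chemoattractant and cytokine receptors, *Fpr2* (611 and 441 CPM against 446 and 251) and *Cxcr4*, which retains neutrophils in the marrow (240 and 146 CPM against 175 and 107), were higher only after centring, and *Csf3r* was lower (1172 and 1171 CPM against 3112 and 2406, ratios −1.25 and −0.84), though not past the fold in both libraries at 1500 to 3000 UMIs. *Cxcr2*, which draws neutrophils out of the marrow, was at 1009 and 1216 CPM against 1361 and 1290, ratios of −0.27 and 0.11. Of 12 adhesion and egress genes, *Itgam*, *S1pr4* and *Cxcr4* were higher, and *Itga4* (integrin α4) and *Jaml* (a junctional adhesion molecule, 180 and 153 CPM against 496 and 301) were lower. Of 19 Fc, complement and pattern recognition receptors, *Clec5a* and, only after centring, *Trem3* were higher and *Sirpb1b* and *Sirpb1c*, which are near-identical copies, were lower.

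Of 12 IL-1 and NF-kB response genes, none was higher, and *Cxcl2* (a neutrophil chemokine, 22.3 and 49.8 CPM against 45.0 and 200) and *Tnfaip2* were lower. Of 15 interferon-stimulated genes, *Ifitm6* was higher and *Oasl2*, *Slfn5* and *Ifitm1* were lower, the latter at 344 and 2955 CPM against 1165 and 6327. Among 9 genes of STAT5, JAK and SOCS signalling, *Socs3* was lower and none higher; *Stat5b* was at 109 and 83.8 CPM against 141 and 111. Of 9 MAP4K and downstream kinases, *Map4k4* and *Map2k4* were higher. Of 26 transcription factors of neutrophils, *Klf5* was higher and *Junb* was lower (313 and 310 CPM against 621 and 714), and without centring *Cebpb*, *Jund* and *Fos* were lower too. Other listed genes that were lower only without centring were *Ifngr1*, *Pim1*, *Ccl6*, *Nlrp3* and *Mki67*. None of 8 BCL2-family and caspase genes was past the fold in both libraries, *Mcl1*, the survival factor of neutrophils, having ratios of −0.45 and 0.05. The same held for 26 genes of cortical actin and motility and for 7 cell cycle genes, and *Cxcr4* and *Itga4* were the genes past the fold among 6 genes of aged neutrophils.

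At 1500 to 3000 UMIs several of these calls ended. None of the 26 transcription factors, the 19 Fc, complement and pattern recognition receptors, the 7 S100 and annexin genes and the 14 glycolysis genes was then past the fold in both libraries. *Slfn5* was left among the interferon-stimulated genes, *Cxcr4* among the adhesion and egress genes, *Mmp25* and *Fgl2* among the gelatinase granule genes and *Srgn* among the primary granule genes. *Fpr2* and *Cxcr4* stayed higher among the chemoattractant and cytokine receptors, *Cxcl2* stayed lower among the IL-1 and NF-kB response genes, *Socs3* stayed lower, and *Map4k4* and *Map2k4* stayed higher. Calls gained in that range were *Ltb4r1* among the receptors and *Plaur* among the IL-1 and NF-kB response genes, both higher.

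Between the libraries, members labelled cKO held more transcripts of stefins and other protease inhibitors (10 of 12 past the fold). The same held for glycolytic enzymes (6 of 14). Of 14 interferon-stimulated genes, 4 *Ifitm* genes were higher and *Ifi27l2a* was lower. At 1500 to 3000 UMIs 7 of the 12 inhibitors, 5 of the 14 enzymes and 2 of the *Ifitm* genes (*Ifitm1* and *Ifitm2*) were higher, beside 9.22% of all genes higher and 13.3% lower. Members labelled cKO held less of the 4 antibody-related genes compared, *Ighm*, *Igkc*, *Jchain* and *Igha*, and of the 3 haemoglobin genes compared. At 1500 to 3000 UMIs the call of *Ighm* ended and the others stayed lower. In the other mature neutrophils of the same libraries the counts were 7 of 12 protease inhibitors, 5 of 13 glycolytic enzymes and the same 4 *Ifitm* genes, beside 16% of all genes higher and 10.7% lower there, and all 7 antibody-related and haemoglobin genes were lower. Among the 17 interferon-stimulated genes compared there, 4 were lower (*Rsad2*, *Irf9*, *Ifi27l2a* and *Slfn4*). Of the 5 erythroid markers compared there, 2 were higher (*Car1* and *Car2*). Whether members differ in this from the other mature neutrophils was not tested. Of 2083 genes compared, 176 (8.45%) were more than 1.5-fold higher in members labelled cKO and 117 (5.62%) lower, after centring on a median of −0.27. Without centring the split was 70 and 381, and under median-of-ratios scaling it leaned the other way, with most genes past the fold higher (closing section). With 1 library per group these differences cannot be told apart from differences between animals, preparations or sequencing runs, and, since CPM are shares of the RNA of a pool, fewer transcripts of a gene cannot be told apart from more of the others.

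*Wfdc17* had the highest ratio among the genes with a mean of at least 100 CPM, from 207 CPM (193–223) in Ctrl members to 2758 CPM (2720–2796) in cKO members, a log2 ratio of 4.0. In passing neutrophils the ratio was 2.34. *Ifitm1*, an interferon-induced transmembrane protein, went from 344 CPM (325–364) to 2955 CPM (2917–2995), a ratio of 3.37, and its relative *Ifitm2* from 818 to 2645 CPM, a ratio of 1.96. *Prok2* went from 57.7 to 284 CPM (2.56). *Asprv1*, a retroviral-like aspartic protease, went from 255 to 974 CPM (2.20), *Upp1*, uridine phosphorylase, from 65.6 to 243 CPM (2.16), and *Tspo*, a mitochondrial translocator protein, from 332 to 1042 CPM (1.92). *Stfa2*, *Stfa1* and *Cstdc5*, stefins of 1 gene cluster with near-identical members, had ratios of 2.27, 2.03 and 1.98. At 2000 UMIs per barcode, a UMI of *Wfdc17* was seen in 17.7% of Ctrl members and 72.3% of cKO members, of *Ifitm1* in 28.4% and 71.2%, and of *Cd177* in 80.4% and 78.0%. *Wfdc17* differed within each range of *Camp*, *Ngp* and *Ltf* share, at 311, 97.3 and 47.3 CPM in the library labelled Ctrl and at 3963, 781 and 376 CPM in the library labelled cKO.

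The 10 lowest were *Igha* (946 and 19.2 CPM, a ratio of −5.35), *Jchain* (−4.62), *Hba-a2* (−3.70), *Igkc* (1535 and 121 CPM, −3.39), *Hbb-bs* (−3.19), *mt-Nd2* (−1.50), *Ncl* (−1.23), *mt-Nd1* (−1.13), *Npm1* (−1.10) and *Ptma* (−1.09). Among barcodes with 1500 to 3000 UMIs the ratios of *Ncl*, *mt-Nd1*, *Npm1* and *Ptma* turned to 0.21, 0.22, 0.97 and 0.45 and that of *mt-Nd2* was −0.58. In the same range *Igha* was at −3.73, *Jchain* at −2.18, *Hba-a2* at −2.93, *Igkc* at −1.36 and *Hbb-bs* at −1.88. The first 5 are transcripts of plasma cells, B cells and erythroid cells. Summed over 6 plasma cell markers, members held 1287 and 62.0 CPM, with *Igha* and *Xbp1* as the most abundant, and over 10 erythroid markers 766 and 67.1 CPM. Monocyte and macrophage markers summed to 203 and 137 CPM, with *Csf1r* as the most abundant and *C1qc* at 0 in cKO members. T and NK cell markers summed to 86.5 and 53.8 CPM, stem and progenitor markers to 95.6 and 36.3 CPM, dendritic cell markers to 124 and 19.9 CPM, eosinophil and basophil markers to 65.6 and 27.6 CPM and platelet markers to 30.3 and 3.33 CPM. At least 3 UMIs from the B cell, T and NK cell, monocyte, eosinophil and basophil, stem cell or platelet list were held by 50.3% (47.3–53.3) of Ctrl members and 17.1% (14.9–19.5) of cKO members, and at least 3 UMIs of the B cell list alone by 49.0% and 13.4%. *Gm42418*, a repeat overlapping ribosomal RNA, took a median 3.04% and 1.38% of UMIs in members. Their part in the results was not tested; without the barcodes that held markers of another lineage, *Wfdc17* had a ratio of 3.85 and *Ifitm1* of 3.32. Without the barcodes found in both libraries the ratios were 4.05 and 3.06.

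**Figure D5:**
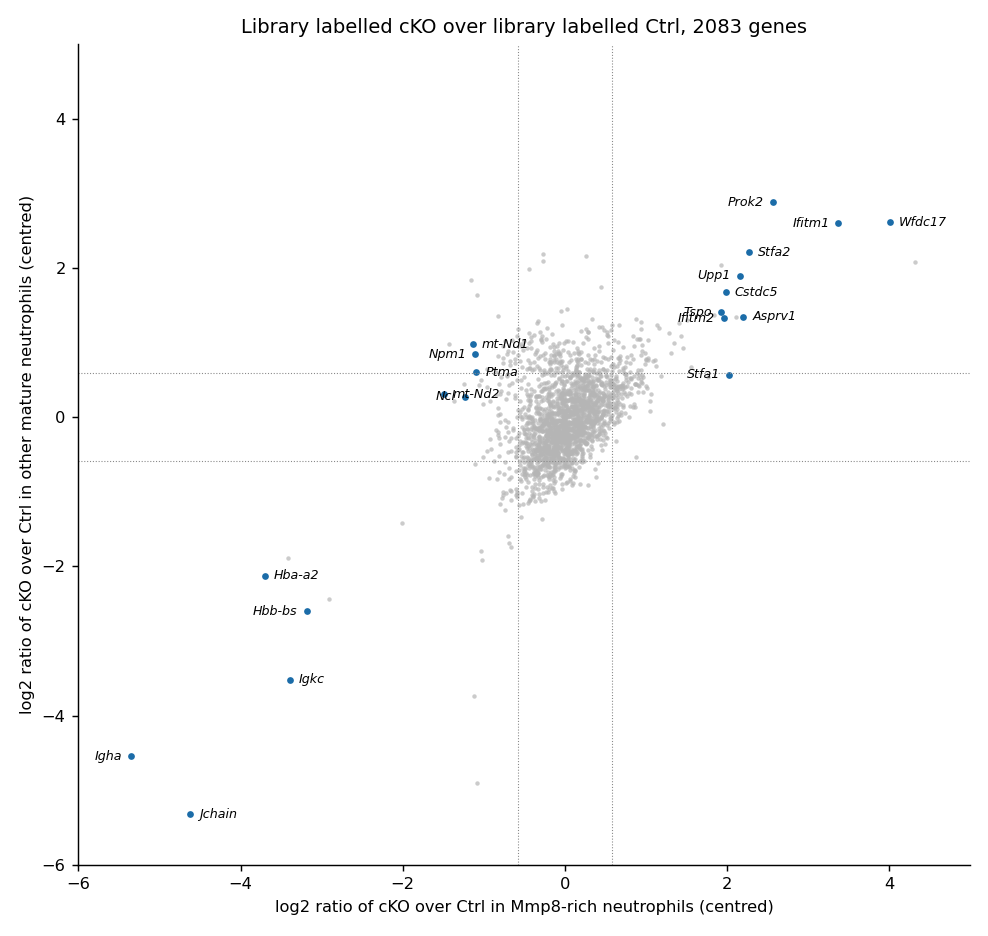
Centred log2 ratio of the library labelled cKO over the library labelled Ctrl in members (x axis) and in other mature neutrophils (y axis) for 2083 genes, with the 10 highest and 10 lowest genes in members in blue and dotted lines at 1.5-fold. Wfdc17, Ifitm1 and Prok2 are high on both axes, Igha and Jchain low on both, and Npm1, mt-Nd1 and Ptma are low on the x axis and above 0 on the y axis.

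The other mature neutrophils come from the same libraries and share their preparation and free RNA. Their own ratios of cKO over Ctrl were 2.61 for *Wfdc17*, 2.60 for *Ifitm1*, 2.88 for *Prok2*, 2.21 for *Stfa2*, 1.35 for *Asprv1*, 1.89 for *Upp1*, 0.57 for *Stfa1*, 1.67 for *Cstdc5*, 1.32 for *Ifitm2* and 1.41 for *Tspo*. For the lowest genes they were −4.54 for *Igha*, −5.32 for *Jchain*, −2.13 for *Hba-a2*, −3.52 for *Igkc* and −2.60 for *Hbb-bs*, and 0.30 for *mt-Nd2*, 0.27 for *Ncl*, 0.97 for *mt-Nd1*, 0.84 for *Npm1* and 0.60 for *Ptma*. The ratios of the last 5 genes were thus below 0 in members and above 0 in the pool of other mature neutrophils, whose barcodes rich in neither had the high ribosomal and mitochondrial shares given above in the library labelled cKO. In the *Il1b*-richer barcodes, which belong to that pool, they were below 0 as in members, at −1.86, −1.06, −0.97, −1.57 and −1.13 on 16 to 98 UMIs per library, and in passing neutrophils at −1.05, −0.60, −0.51, −0.35 and −0.57.

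The counts of lists between the libraries stand beside the 8.45% of all genes that were higher and the 5.62% that were lower, and many rest on the centring by −0.27. Of 12 stefins and other protease inhibitors, 10 were higher in cKO members, with a median of 0.84, and 5 were past the fold without centring (*Stfa1*, *Stfa2*, *Stfa3*, *Cstdc5* and *Wfdc17*). *Slpi*, the secretory leukocyte peptidase inhibitor, went from 2021 to 3015 CPM and *Cstb* (cystatin B) from 75.2 to 105 CPM. Of 18 Fc, complement and pattern recognition receptors, 9 were higher (median 0.58), including *Fcgr3* (an activating IgG receptor, 419 to 596 CPM), *Tlr2* (66.7 to 97.1 CPM), *Clec4d* (335 to 486 CPM) and *Trem1* (78.9 to 106 CPM). Those 4 passed only after centring, and without it *Clec4e*, *Sirpb1b* and *Sirpb1c* were past the fold and *Clec5a* was lower. Of 14 glycolysis genes, 6 were higher (median 0.51) and 5 without centring, with *Gapdh* going from 1221 to 2471 CPM and *Aldoa* from 536 to 891 CPM. Of 16 chemoattractant and cytokine receptors, *C5ar1*, *Csf2rb*, *Il1r2*, *Ifngr1* and *Ifngr2* were higher (median 0.46); without centring *Csf2rb* was the higher gene left, and *Cxcr4* and *Csf2ra* were lower. Of 14 interferon-stimulated genes, *Ifitm1*, *Ifitm2*, *Ifitm3* and *Ifitm6* were higher and *Ifi27l2a* was lower (297 to 148 CPM). Without centring the same *Ifitm* genes were higher, and *Isg15* and *Rsad2* were lower beside *Ifi27l2a*.

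Secondary granule genes divided, with *Lcn2* (5473 to 8648 CPM), *Hp* (haptoglobin), *Ceacam10*, *Pglyrp1* (a peptidoglycan recognition protein), *Tcn2* and *Wfdc21* higher and *Chil3* (454 to 236 CPM), *Fcnb* (ficolin B) and *Olfm4* lower; without centring *Lcn2* and *Ceacam10* were the higher genes left. Of 8 primary granule genes, *Srgn* was higher and *Mpo* lower (644 to 251 CPM). *Cyba* and *Rac2* were higher of 8 oxidase genes, *S100a6*, *S100a11* and *Anxa2* of 8 S100 and annexin genes, *Actb*, *Arpc3* and *Rac2* of 26 actin genes, and *Cfp* and *Hp* of 10 gelatinase granule genes, all of them only after centring. *Alox5ap*, the 5-lipoxygenase activating protein (1255 to 2079 CPM), and *Pla2g7* were higher and *Lta4h* was lower among 5 leukotriene and prostaglandin genes. *Hif1a* was higher and *Cebpe* (116 to 59.0 CPM) and *Jund* were lower among 25 transcription factors, and without centring *Klf2*, *Jun* and *Fos* as well. Of 9 MAP4K and downstream kinases, *Map4k2* was lower (271 to 141 CPM). With all depths pooled, none of 8 BCL2-family and caspase genes was past the fold, nor any of 7 STAT5, JAK and SOCS signalling genes. However, *Apaf1* and *Xiap* were lower without centring. *Stat5b* had a ratio of −0.12 and *Stat5a* stood at 13.3 and 7.74 CPM. Of 5 cell cycle genes, *Mki67*, *Tubb5* and *Stmn1* were lower, *Mki67* at 71.6 and 29.5 CPM, and 4 of 7 RNA quality genes were lower.

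These lists were also read at 1500 to 3000 UMIs, where the library labelled Ctrl had 505 members and the library labelled cKO had 82. There 9.22% of the 2083 genes were higher and 13.3% lower, against 8.45% and 5.62% at all depths. The primary granule calls changed, with *Elane*, *Prtn3*, *Ctsg*, *Ms4a3* and *Serpinb1a* higher and none lower. Of the secondary granule genes *Fcnb* was higher, opposite to its direction at all depths, and *Olfm4* stayed lower. Of the receptors for Fc, complement and patterns *Tlr2*, *Sirpb1b* and *Sirpb1c* stayed higher and *Clec5a* was lower. Among interferon-stimulated genes *Ifitm1* and *Ifitm2* stayed higher, *Oasl2* was higher and *Isg15* and *Rsad2* were lower. None of the 5 cell cycle genes was lower, and of the RNA quality genes *Gm42418* and *Lars2* stayed lower. Of the 8 BCL2-family and caspase genes, *Bid* was higher and *Apaf1* and *Xiap* were lower in this range. None of the 7 genes of STAT5, JAK and SOCS signalling was past the fold there. *Hif1a* stayed higher, *Pla2g7* stayed higher and *Lta4h* lower, and *Map4k2* stayed lower, whereas the calls of *Cyba*, *Rac2*, *Actb*, *Arpc3*, *S100a6*, *S100a11*, *Anxa2*, *Alox5ap*, *Cebpe*, *Jund*, *C5ar1*, *Csf2rb*, *Il1r2*, *Ifngr1* and *Ifngr2* ended. Further calls gained in this range included *Cebpb*, *Junb*, *Ltb4r1* and *Wasf2* as higher. Those gained as lower included *Klf5*, *Rara*, *Nfe2l2*, *Fpr2*, *Ncf1*, *Il1rn*, *Anxa3*, *Anxa5*, *Map2k3*, *Jaml* and *Ceacam1*.

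In both libraries *Xist* was seen in members, at 227 and 139 CPM, and *Ddx3y*, *Eif2s3y*, *Uty* and *Kdm5d*, which lie on the Y chromosome, were at 0, which allows up to 0.848 CPM in Ctrl members and 0.400 CPM in cKO members.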

How the data were processed

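The authors deposited raw UMI counts per gene and barcode for each library, made with Cell Ranger 5.0.0 on mm10 (per the submitters' processing notes), for barcodes already called as cells and without normalization; the annotation is not given in the sources used here, and 32158 of the 32285 gene identifiers are in the GENCODE table used for coordinates. The libraries held 10220 barcodes with 71527701 UMIs (Ctrl) and 6872 barcodes with 64393950 UMIs (cKO). Barcodes with 200 to 9000 genes, at most 30% mitochondrial UMIs and at least 1000 UMIs were kept, 8795 and 5347. The study ran DoubletFinder; no doublet caller was run here and no doublets were removed.

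UMIs were summed per library and group (3535809 and 7497103 in members) and scaled by the total of the group to CPM. Log2 ratios had 0.5 UMIs added to each sum, were centred on the median of the genes compared, with a mean of at least 50 CPM over the pools and the 8 genes of the rule left out, and were called past the fold beyond 1.5-fold, in both libraries where groups were compared within a library. Levels carry exact Poisson and shares exact Clopper-Pearson 95% intervals; a count of 0 allows 3 UMIs. Named genes were the 12 highest and 12 lowest over other mature neutrophils by the smaller ratio of both libraries, and the 10 highest and 10 lowest between libraries, with at least 100 CPM, the genes of the rule, *Map4k4*, *Stat5a* and *Stat5b*, and the most abundant and most different members of 36 gene lists; other genes were named after their values were seen. The members and lists were chosen with earlier results of these data known. Thinning drew 2000 UMIs per barcode with a fixed seed. Alternatives to the cut-offs, depth, scaling and filters are in the closing section. Calculations used Python 3.11.15, numpy 2.4.6, scipy 1.17.1 and pandas 2.3.3 and were tested on simulated data.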

Additional observations from a re-analysis of the deposited data

Results flagged for a closer look

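*mt-Nd1*, *Npm1* and *Ptma* are among the 10 lowest genes of the library labelled cKO in *Mmp8*-rich neutrophils and pointed the other way in the pool of other mature neutrophils. Their log2 ratios of cKO over Ctrl were −1.13, −1.10 and −1.09 in *Mmp8*-rich neutrophils and 0.97, 0.84 and 0.60 in other mature neutrophils. In the *Il1b*-richer barcodes, a part of that pool, they were −0.97, −1.57 and −1.13, and in passing neutrophils −0.51, −0.35 and −0.57, below 0 as in *Mmp8*-rich neutrophils. The difference between the 2 pools was not tested. Among barcodes with 1500 to 3000 UMIs the ratios in *Mmp8*-rich neutrophils were 0.22, 0.97 and 0.45.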

How the results depend on the processing

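The excess of *Mmp8*-rich neutrophils among kept barcodes of the library labelled cKO, 7.98 percentage points, was 11.5 with at least 2000 UMIs per barcode, 9.28 with at least 5 *Mmp8* UMIs, 9.43 with no condition on *Il1b*, 10.5 after thinning and 3.80 without barcodes holding markers of another lineage. Among mature neutrophils the 3.95 points became −0.13 with at least 2 *Mmp8* UMIs, 14.4 with at least 5, 9.06 with no condition on *Il1b*, 9.47 without markers of another lineage, 16.2 with *Camp*, *Ngp* and *Ltf* below 2% and 14.4 with at most 1% mitochondrial UMIs, a limit chosen after seeing the data. The 180 genes past the fold over other mature neutrophils became 385 (144 higher, 241 lower) with *Mmp8* at 0.1% of UMIs or more, 307 at 4000 to 12000 UMIs, where the library labelled Ctrl had 4 other mature barcodes, 113 (68 and 45) of the 2354 genes that reached 50 CPM at 1500 to 3000 UMIs (also chosen after seeing the data), 117 with means of barcode shares, 361 and 103 with at least 20 and 100 CPM, 43 at 2-fold, and 171 (64 higher, 107 lower) without centring. The 293 genes past the fold between libraries became 523 (266 and 257) of the 2255 genes that reached 50 CPM at 1500 to 3000 UMIs, 451 (70 and 381) without centring, 474 (439 and 35) under median-of-ratios scaling, 590 and 150 with at least 20 and 100 CPM, and 65 at 2-fold. Of 432 ratios of 24 named genes over other mature neutrophils under 18 alternatives, 12 changed sign, 42 others moved by more than 1.5-fold and 36 were no longer past the fold, 10 of them at 1500 to 3000 UMIs. *Igkc* became 1.63 and *Jchain* 2.27 with at least 2 *Mmp8* UMIs, 1.17 and 1.71 without barcodes found in both libraries, 1.0 and 1.63 with *Camp*, *Ngp* and *Ltf* below 2%, and 0.19 and 0.40 at 1500 to 3000 UMIs. At 4000 to 12000 UMIs *Jchain* became 0.26, *Fgl2* 0.16 and *Gm5150* 0.80, and *Stfa3* became −0.10 after thinning. Between libraries 22 of 399 ratios of 21 genes moved and 5 changed sign, *Ncl* (0.21), *mt-Nd1* (0.22), *Npm1* (0.97) and *Ptma* (0.45) at 1500 to 3000 UMIs and *Map4k4* (0.095) under median-of-ratios scaling. Apart from the number of genes or barcodes entering, the cause was not tested. No paired analysis was possible because each group has 1 library, so the groups share fewer than 2 replicate numbers. Leaving out a replicate would leave a group empty.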
